A study of Mus musculus with 8 samples.

Results

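The elastic fibre and microfibril genes were a set of 10 structural genes, taken by symbol from the deposited table: Eln, Fbn1, Fbln1, Fbln2, Fbln5, Efemp1, Efemp2, Emilin1, Mfap4 and Mfap5. All 10 were among the 16464 genes listed, and all 10 were tested. They were measured by RNA-seq of whole posterior knee joint capsule, the tissue that closes the back of the joint, from wild type C57BL/6 mice that were 10 weeks old. In the cast group (4 libraries), the knees of male mice had been fixed at 140 degrees for 2 weeks, starting from 8 weeks of age, and the naive group (4 libraries) had no cast by its label. The labels give no transgene or drug in either group and are silent on whether each library of a group is 1 mouse; p-values therefore speak only for the spread among these libraries, which may be technical. Because whole tissue was sequenced, fewer cells of a type and less RNA per cell cannot be told apart.

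Elastic fibres give tissues recoil. Elastin, made from Eln, is secreted as soluble tropoelastin, gathered by fibulins, laid on a scaffold of fibrillin microfibrils and crosslinked by lysyl oxidases. In a joint capsule, which must stretch and return as the joint moves, elastic fibres run among a larger mass of collagen.

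The deposited values were normalised read counts, from which whole reads were recovered. The libraries held 1503880 to 7381255 recovered reads. Naive replicate 4 was the shallowest and correlated with the other naive libraries at 0.882 to 0.897 across genes, against 0.979 to 0.982 among those 3. Cast replicate 1 correlated with the other cast libraries at 0.947 to 0.961. The lowest count of a member in any library was 43 reads (Mfap4), so no member was near the limit of detection. A gene was called where its adjusted p (limma-trend on log2 of the value plus 1, Benjamini-Hochberg over 15120 genes) was at most 0.05, which 12.0% of all genes tested were (6.51% higher and 5.46% lower in cast).

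After 2 weeks in a cast, 3 members were called higher (Efemp1, Efemp2 and Emilin1), 1 was called lower (Mfap5) and 6 were not called, among them elastin and the main fibrillin. The median log2 fold change was 0.37 over the 10 members and 0.07 over all genes tested. Groups did not overlap for 2 members, Efemp2 with every cast library above and Mfap5 with every cast library below, against 11.1% and 9.39% of all genes in those directions. At an unadjusted p under 0.05 there were 6 members, against 26.6% of all genes tested.

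**Figure D1:**
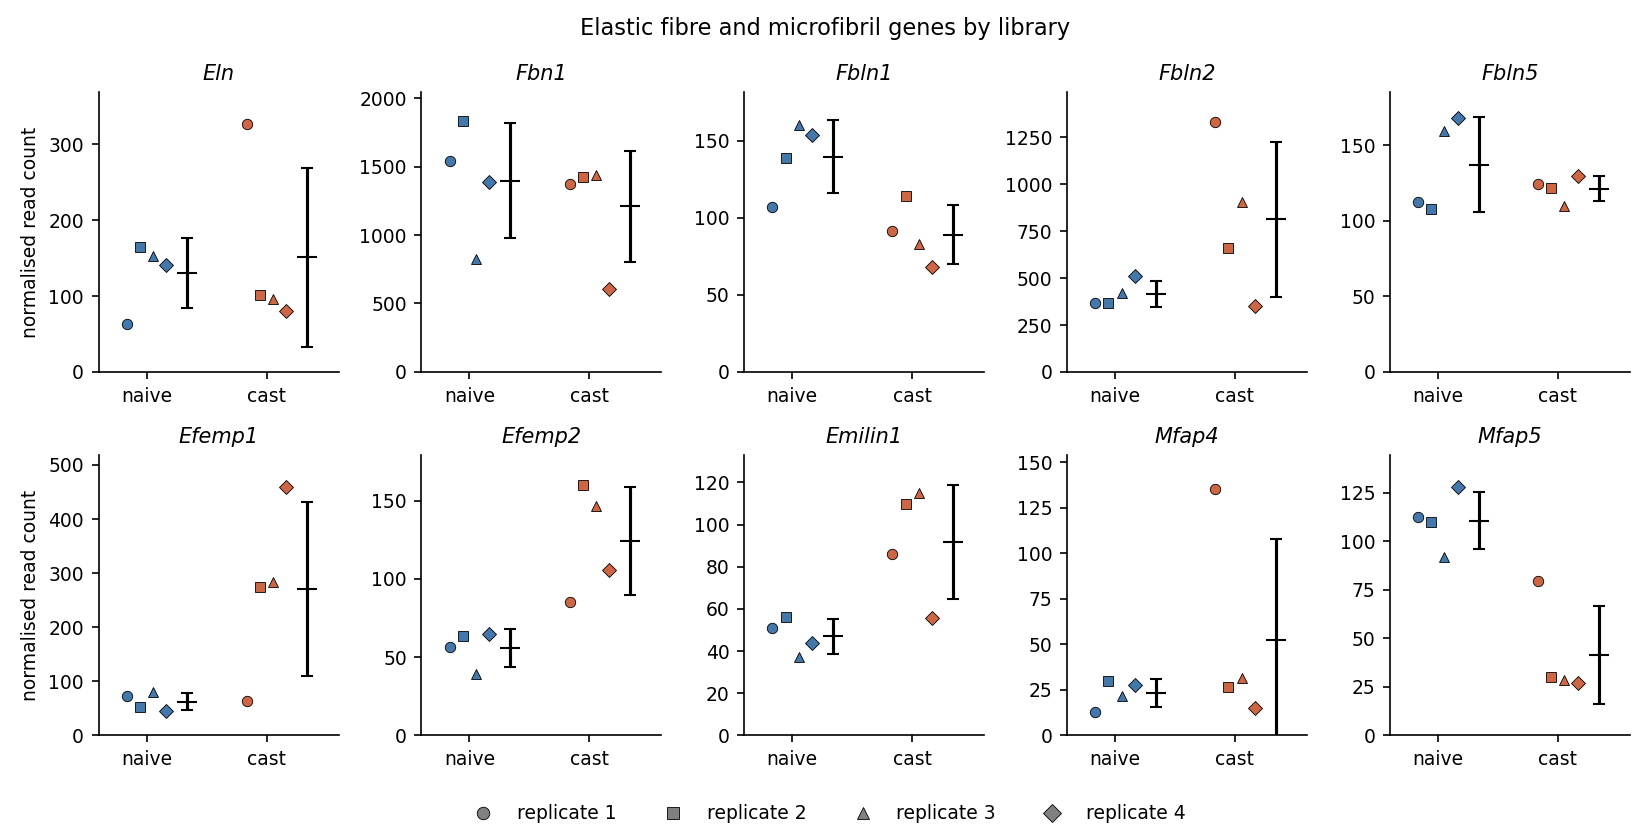
Normalised read count (linear axis from 0, scaled for each gene) of the 10 members in the 4 naive (blue) and 4 cast (orange) libraries, 1 point a library with a shape for each replicate number; the bar beside the points is the mean ± SD, which for Mfap4 in cast runs below the axis. Efemp2 separates upward and Mfap5 downward, while Eln and Mfap4 have 1 cast library far above the other 3.

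Promoter sequence is shown for the pair of members that rose within the fibulin family, Efemp1 and Efemp2, beside 2 fibulins of similar naive level per kilobase that were not called, Fbln1 and Fbln5. RefSeq promoter windows (GRCm38.p6) matched 7 of the 10 members; Eln, Mfap4 and Mfap5 are named only. Each window below runs 5′ to 3′ on the gene's strand over 249 bases that end just before the most upstream annotated start, and capitals mark matches to the motifs searched on both strands.
Efemp1 (chr11:28852955-28853203, plus strand): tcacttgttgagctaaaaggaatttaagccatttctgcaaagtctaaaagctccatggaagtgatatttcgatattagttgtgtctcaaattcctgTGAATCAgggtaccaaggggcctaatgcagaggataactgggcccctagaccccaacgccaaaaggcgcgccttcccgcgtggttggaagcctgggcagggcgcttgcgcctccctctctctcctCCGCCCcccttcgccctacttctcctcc
Efemp2 (chr19:5473696-5473944, plus strand): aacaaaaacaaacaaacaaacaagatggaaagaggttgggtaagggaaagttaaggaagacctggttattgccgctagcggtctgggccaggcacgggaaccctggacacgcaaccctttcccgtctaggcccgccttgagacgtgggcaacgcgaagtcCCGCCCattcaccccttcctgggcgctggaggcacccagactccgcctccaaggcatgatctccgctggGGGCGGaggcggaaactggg
Fbln1 (chr15:85205699-85205947, plus strand): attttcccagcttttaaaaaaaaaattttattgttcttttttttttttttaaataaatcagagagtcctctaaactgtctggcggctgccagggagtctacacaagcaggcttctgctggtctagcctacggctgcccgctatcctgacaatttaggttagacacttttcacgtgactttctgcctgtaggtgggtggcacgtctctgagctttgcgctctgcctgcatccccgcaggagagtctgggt
Fbln5 (chr12:101819121-101819369, minus strand): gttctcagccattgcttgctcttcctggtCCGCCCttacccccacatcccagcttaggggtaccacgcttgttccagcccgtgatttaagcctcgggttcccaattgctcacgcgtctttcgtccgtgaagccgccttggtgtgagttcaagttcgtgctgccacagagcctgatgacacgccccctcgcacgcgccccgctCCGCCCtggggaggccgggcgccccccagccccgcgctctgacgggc
The motifs were the GC box GGGCGG, the TATA box TATAAA, the AP-1-like pattern TGANTCA (N being any base) and the TEAD motif GGAATG. A GC box match lay about 29 bases before the start of Efemp1 and about 90 and 21 bases before that of Efemp2. In Fbln5 matches lay about 221 and 48 bases before the start. Of 32851 windows of the same length, 32.6% held one. Efemp1 also held a match to the AP-1-like pattern, TGAATCA, about 154 bases before its start. A match to that pattern was held by 6.74% of all windows. None of the 4 windows held a TATA or TEAD match, found in 12.4% and 12.6% of all windows, and Fbln1 held no match to any of the motifs. GC content was 53.4% for Efemp1, 59.4% for Efemp2, 46.2% for Fbln1 and 65.5% for Fbln5. These are matches of letters, not measured binding.

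Eln and Fbn1 encode the core and the scaffold of the fibre. Eln (chr5:134702593-134747323, minus strand, GRCm38) had 62.8, 165, 153 and 141 normalised counts in naive replicates 1 to 4 and 327, 101, 96.0 and 80.2 in cast replicates 1 to 4. Cast replicate 1 was the highest of the 8 libraries and the other 3 cast libraries lay inside the naive range. Means were 130.4 ± 46.1 in naive and 151 ± 118 in cast (SD, n = 4 each), with a log2 fold change of 0.05 (SE 0.46, limma adjusted p = 0.958). Without cast replicate 1 the log2 fold change was -0.41 (limma adjusted p = 0.501) and without naive replicate 1 it was -0.27 (limma adjusted p = 0.728). It was also below 0 with array weights (-0.12) and with libraries thinned to the smallest total (-0.05), so no direction can be given for Eln. Fbn1 (chr2:125300594-125507993, minus strand), which encodes fibrillin-1, the main protein of adult microfibrils, had 1543, 1832, 827 and 1387 normalised counts in naive and 1376, 1427, 1437 and 605 in cast. The groups overlapped, cast replicate 4 being the lowest of all libraries. Its means were 1397 ± 422 and 1211 ± 405 (SD, n = 4 each), and its log2 fold change was -0.23 (SE 0.36, limma adjusted p = 0.722). Without cast replicate 4 it was 0.07 (limma adjusted p = 0.910), so its sign rested on that library.

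The fibulins Fbln1, Fbln2 and Fbln5 are calcium-binding glycoproteins of the matrix; fibulin-5 carries tropoelastin and lysyl oxidase-like 1 to microfibrils. None of the 3 was called. Fbln1 (chr15:85205949-85286535, plus strand) had 107, 138, 159.9 and 153 normalised counts in naive and 91.1, 114, 83.2 and 68.0 in cast. Only cast replicate 2 reached into the naive range. Its log2 fold change was -0.65 (SE 0.20, limma adjusted p = 0.0686), and it passed the threshold under array weights and with DESeq2. Fbln2 (chr6:91212455-91272540, plus strand) had 365, 368, 419 and 509.7 in naive and 1331, 662, 904 and 353 in cast. Cast replicates 1 to 3 lay above every naive library and cast replicate 4 lay below them all. The log2 fold change was 0.82 (SE 0.36, limma adjusted p = 0.184). Without cast replicate 4 it was 1.17 (adjusted p = 0.0323) and without cast replicate 1 it was 0.53 (adjusted p = 0.349), and with array weights the adjusted p was 0.0372. Fbln5 (chr12:101746565-101819055, minus strand) had 113, 108, 159.6 and 168 in naive and 124, 121, 109.6 and 129.9 in cast, where it was the least variable member, with a coefficient of variation of 7.05% against 22.8% in naive. Its log2 fold change was -0.15 (SE 0.19, limma adjusted p = 0.657).

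Efemp1 and Efemp2 encode fibulin-3 and fibulin-4; fibulin-4 is needed for elastin assembly and brings lysyl oxidase to it. Efemp1 (chr11:28853204-28926743, plus strand) had 72.0, 52.4, 79.5 and 44.6 normalised counts in naive and 63.9, 274, 284 and 459 in cast. Cast replicates 2 to 4 were each above every naive library, and cast replicate 1 lay within the naive range. The mean went from 62.2 ± 16.3 to 270.3 ± 162 (SD, n = 4 each). The geometric mean of the value plus 1 was 3.58-fold higher in cast (log2 1.84, SE 0.52, limma adjusted p = 0.0487). This call sat close to the threshold: it was lost when any 1 of the libraries other than cast replicate 1 was left out, while without cast replicate 1 the log2 fold change was 2.43 (limma adjusted p = 0.00211). Efemp2 (chr19:5473954-5482517, plus strand) had 56.2, 63.2, 38.9 and 64.7 in naive and 85.4, 159.6, 147 and 105 in cast. Every cast library was above every naive one. The mean went from 55.7 ± 11.9 to 124 ± 34.7. The geometric mean of the value plus 1 was 2.18-fold higher in cast (log2 1.13, SE 0.25, limma adjusted p = 0.0181). Leaving out naive replicate 3 gave an adjusted p of 0.0519, cast replicate 2 one of 0.0545 and cast replicate 3 one of 0.0633. Efemp2 overlaps Mus81 on the other strand by 173 bases, and the strand setting of the counting is not given in the sources used here; Mus81 averaged 12.9 normalised counts.

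Emilin1 (chr5:30913402-30921277, plus strand) encodes a glycoprotein found where elastin meets microfibrils. It had 50.9, 56.1, 37.0 and 44.0 normalised counts in naive and 86.2, 110.00, 115 and 55.6 in cast. The groups overlapped by a little, since cast replicate 4 lay just below naive replicate 2. The mean went from 47.0 ± 8.31 to 91.8 ± 27.2 (SD, n = 4 each). The geometric mean of the value plus 1 was 1.88-fold higher in cast (log2 0.91, SE 0.25, limma adjusted p = 0.0423). The adjusted p rose to between 0.0668 and 0.128 when any 1 of naive replicates 1 to 3 or cast replicates 1 to 3 was left out.

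Mfap4 and Mfap5 encode microfibril-associated proteins; Mfap5 is also called MAGP-2 and binds fibrillins, and Mfap4 binds tropoelastin and fibrillin. Mfap5 (chr6:122505845-122529290, plus strand) had 112, 110.02, 91.9 and 128 normalised counts in naive and 79.4, 30.1, 28.5 and 27.2 in cast. Every cast library was below every naive one, with cast replicate 1 nearest to them. The mean went from 111 ± 14.8 to 41.3 ± 25.4 (SD, n = 4 each). The geometric mean of the value plus 1 was 2.92-fold lower in cast (log2 -1.55, SE 0.32, limma adjusted p = 0.0151). Without cast replicate 3 the adjusted p was 0.0529. Mfap4 (chr11:61485431-61488900, plus strand) had 12.8, 30.0, 21.5 and 27.8 in naive and 135, 26.7, 31.2 and 14.9 in cast. Cast replicate 1 stood far above the rest, and the other 3 cast libraries ranged over much the same values as naive. The log2 fold change was 0.70 (SE 0.58, limma adjusted p = 0.486) and 0.08 without cast replicate 1. Mfap4 overlaps Mapk7 on the other strand by 89 bases, and Mapk7 averaged 20.0 normalised counts.

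Marker levels of other cells differed between the groups alongside these calls. The counts of called markers here and in the next paragraph stand beside 6.51% called higher and 5.46% lower over all genes tested. The summed level of 17 skeletal muscle markers was 4658, 3290.2, 6379 and 197 normalised counts in naive and 798, 58.9, 76.9 and 216 in cast, with 8 of the 17 called lower. The covariate, called the muscle level below, was the mean of log2(value + 1) over those markers, not their sum. With it, 0 of the 10 members were called. The log2 fold change was then 1.64 for Efemp1 (limma adjusted p = 0.159), 0.72 for Emilin1 (0.175) and -1.30 for Mfap5 (0.0760), against 1.84, 0.91 and -1.55 without the covariate. For Efemp2 it went from 1.13 to 0.55 (limma adjusted p = 0.184). Over all 15120 genes tested, 4424 were called with the covariate, against 1810 (12.0%) without it. The summed level of 10 markers of adventitial fibroblasts, the cells around vessels and fascia that carry Pi16 and Dpp4, was 1616 to 1762 in naive and 698 to 1332 in cast, with 5 of 10 called lower and 0 higher. Pi16 itself was 141 ± 72.4 in naive and 139 ± 57.6 in cast (SD, n = 4 each). The part of these markers in the members' differences was not tested.

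Smooth muscle, endothelium and fibroblasts are other sources of elastic fibre proteins. Of 9 smooth muscle markers 0 were called (summed level 776 to 1415 in naive and 1028 to 1293 in cast), and of 8 endothelial markers 0 were called (927 to 1411 and 1022 to 1420.1), with 1 of each list at an unadjusted limma p under 0.05, a share below the 26.6% of all genes. Of 9 general fibroblast markers 2 were called higher, Lum and Pdpn, and of 7 synovial lining markers 4 were called lower, with Prg4, the lubricin gene that defines the lining, at 4312 ± 1334 and 1914 ± 829 (SD, n = 4 each; limma adjusted p = 0.0706). Summed neutrophil markers were 23.1 to 66.3 in naive and 688 to 5954 in cast. Summed cartilage markers were 62.5 to 99.6 and 29.6 to 181, the 181 being cast replicate 1, where Acan alone was 138. Of 7 cartilage markers tested 1 was called higher and 2 lower, Col2a1 among the latter. Of 7 erythroid markers 7 were called higher (summed level 1174 to 1773 in naive and 3939.8 to 19837 in cast), of 10 fat markers 3 were called lower, and of 10 macrophage markers 0 were called, with 3 at an unadjusted limma p under 0.05, near the share over all genes; their part in the members' differences was likewise not tested. Markers of capsule fibroblasts such as Pdgfra (954 ± 22.2 and 1097 ± 67.4, SD, n = 4 each) were present in all 8 libraries.

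Levels of different genes were compared per kilobase of the longest protein-coding transcript in GENCODE M21. In naive capsule Fbn1 was the highest member at 117 ± 35.3 normalised counts per kilobase, followed by Fbln2 at 86.8 ± 14.1 and Mfap5 at 73.4 ± 9.83 (SD, n = 4). Those 3 stood clear of the rest, which ran in the order Fbln1 at 38.2 ± 6.46, Eln, Efemp1, Fbln5, Efemp2, Mfap4 and Emilin1 at 12.2 ± 2.16. Mfap5 and Fbln1 were the only neighbours in this order whose ranges did not overlap. In cast capsule the order per kilobase was Fbln2 at 169.8 ± 86.3, Efemp1 at 133 ± 79.3, Fbn1 at 101 ± 33.8, then Efemp2, Eln, Mfap4, Mfap5 at 27.4 ± 16.9, Fbln1, Emilin1 and Fbln5 at 20.8 ± 1.47, and the ranges of all neighbours overlapped.

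The makeup of the set differed from library to library most in the cast group. Of the summed per-kilobase level of the 10 members, Fbn1 took 17.1% to 31.6% in naive and 10.3% to 20.0% in cast. Mfap5 took 15.1% to 17.7% in naive and 2.97% to 7.11% in cast, so its ranges did not meet. Efemp1 took 4.48% to 9.66% in naive, and 4.23%, 22.6%, 21.9% and 45.7% in cast replicates 1 to 4. Fbln2 took the largest share of cast replicate 1, at 37.5%, and Efemp1 that of cast replicate 4. The coefficient of variation between libraries ran from 13.4% to 35.3% in naive and from 7.05% to 108% in cast and was larger in cast for 9 of 10 members, or for 6 of 10 without cast replicate 1.

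**Figure D2:**
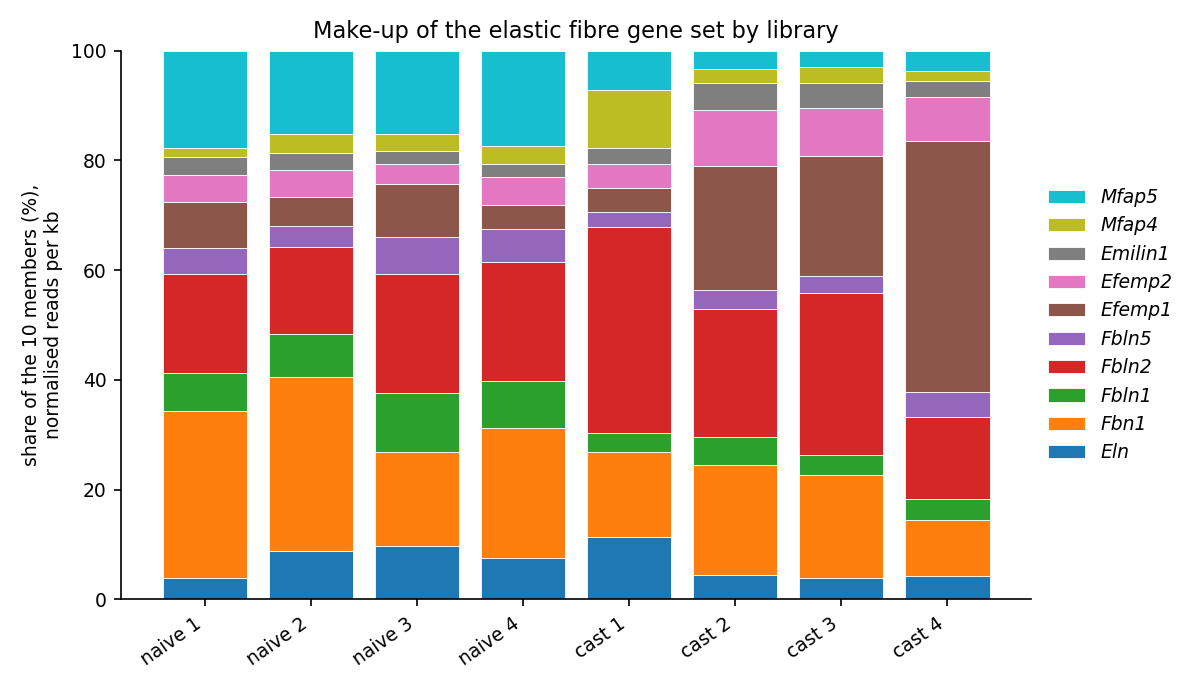
Share (%) of each member in the summed per-kilobase level of the 10 members, 1 stacked bar for each of the 4 naive and 4 cast libraries. Mfap5 takes 15.1% to 17.7% of naive and at most 7.11% of cast libraries, and Efemp1 takes 45.7% of cast replicate 4.

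Cast replicates 1 and 4 held most of the extreme values of the cast group. Cast replicate 1 was the highest cast library for Eln, Fbln2, Mfap4 and Mfap5 and the lowest for Efemp1 and Efemp2. Cast replicate 4 was the lowest for 7 members and the highest for Fbln5 and Efemp1. Across the 8 libraries, as a description over log2 values that share libraries and group, Pearson's r was -0.974 between Efemp1 and Mfap5, 0.895 between Efemp2 and Emilin1, and 0.887 between Eln and Mfap4.

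Levels of members relative to each other were taken as log2 ratios within a library, with 1 added to each value, and 4 pairs were compared by exact permutation of the group labels (two-sided, 70 assignments). The log2 ratio of Mfap4 to Mfap5 was -3.04, -1.84, -2.05 and -2.16 in naive and 0.76, -0.17, 0.13 and -0.82 in cast. The groups did not overlap, the difference being 2.25 (exact permutation p = 0.0286, the smallest that these groups allow, and 0.114 adjusted over the 4 pairs). The ratio of Fbln5 to Fbln1 averaged -0.04 ± 0.22 in naive and 0.46 ± 0.34 in cast (n = 4 each; exact permutation p = 0.0571, adjusted 0.114). The ratio of Efemp2 to Efemp1 averaged -0.14 ± 0.69 and -0.86 ± 1.03 (n = 4 each; exact permutation p = 0.314, adjusted 0.419). The ratio of Eln to Fbn1 averaged -3.44 ± 0.89 and -3.17 ± 0.86 (n = 4 each; exact permutation p = 0.686, adjusted 0.686). After adjustment 0 of 4 pairs passed, and 1 of 4 was under 0.05 unadjusted; with 4 pairs an adjusted p of 0.05 or less needs at least 3 pairs at the smallest p.

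**Figure D3:**
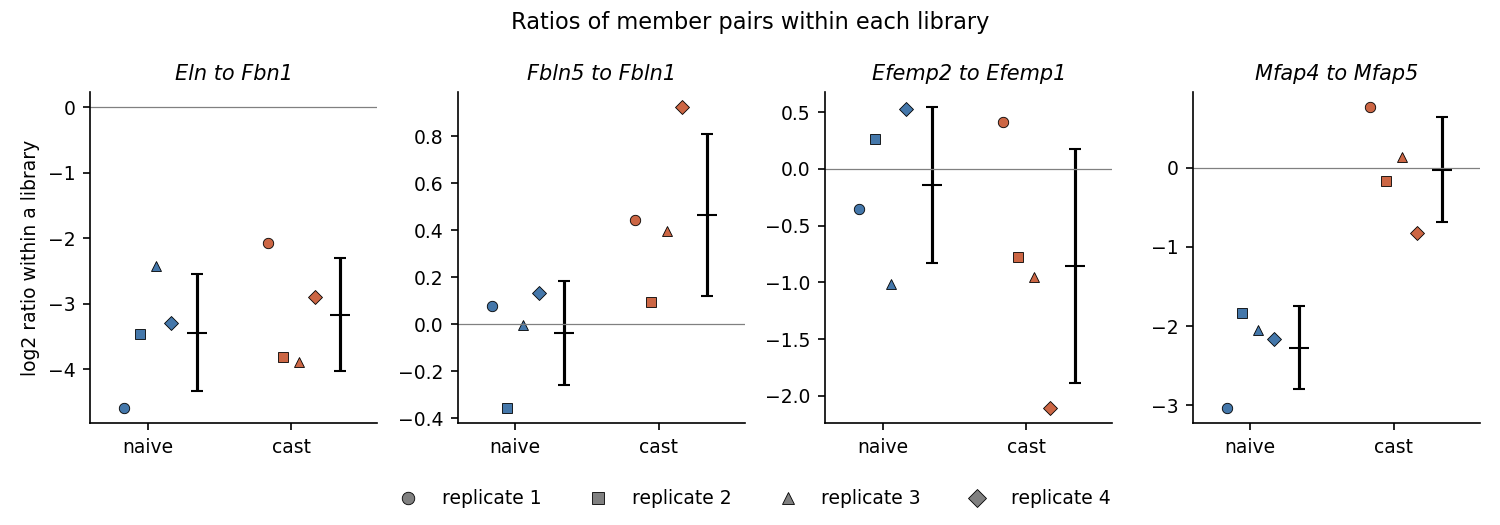
Log2 ratio of the members of 4 pairs within each of the 4 naive (blue) and 4 cast (orange) libraries, 1 point a library with a shape for each replicate number, and the mean ± SD as a bar beside them; the grey line is a ratio of 1. The Mfap4 to Mfap5 ratio lies between -3.04 and -1.84 in naive and between -0.82 and 0.76 in cast, and the other 3 pairs overlap.

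Predicted and clone names left out, the tested genes whose levels followed Eln most closely over the 8 libraries were Rnf123, Mtss1l and Doc2b. Pearson's r was 0.962, 0.944 and 0.940 on the log2 scale. These are the highest values picked from all those genes over 8 libraries, and serve as a description only. Without cast replicate 1, r was 0.910, 0.926 and 0.863. Rnf123 had 58.8 normalised counts in cast replicate 1 against 29.9 to 37.5 in the other cast libraries and 31.0 in naive replicate 1, the library where Eln was lowest.

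The other genes of elastic fibre assembly and turnover were taken from 6 lists, of which 48 of 50 genes were in the table (Hmcn2 and Mmp7 were not analysed here). Of the 48, 8 were called higher and 6 lower, against 6.51% and 5.46% of all genes tested. The median log2 fold change was 0.31, against 0.07 over all genes tested. The counts of each list below stand beside these same shares.

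**Figure D4:**
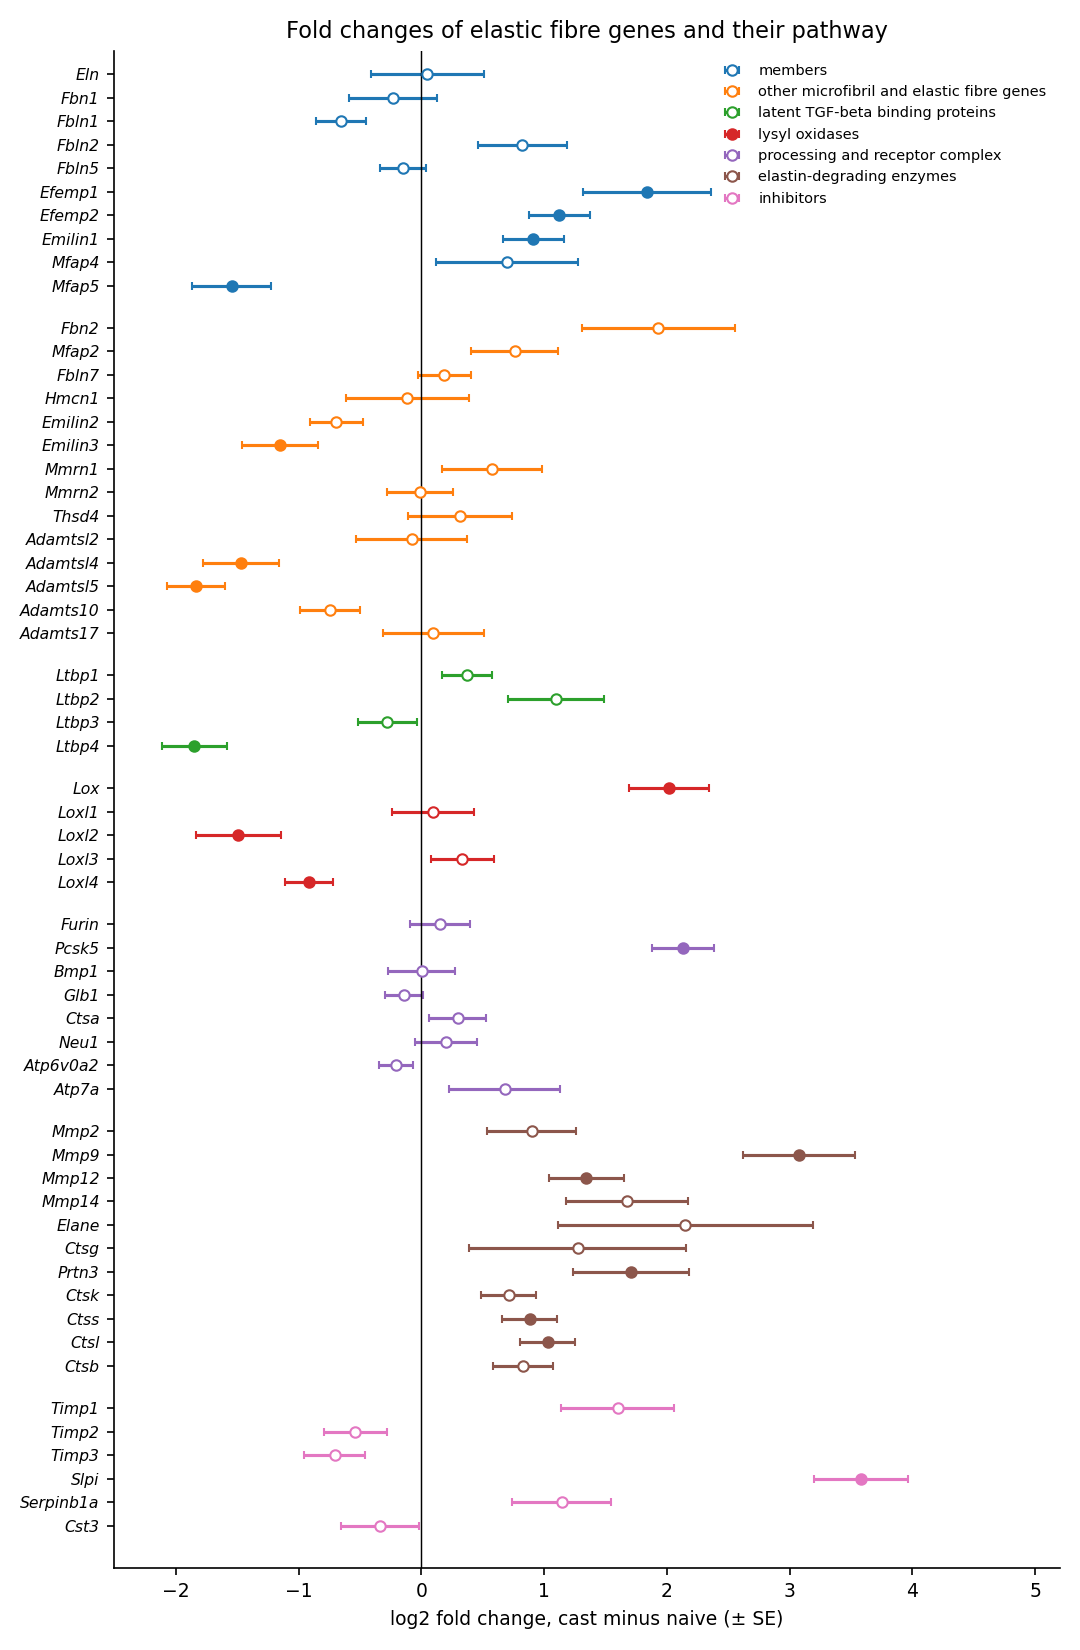
Log2 fold change of cast against naive (log2 of the value plus 1, limma-trend, bars ± SE) for the 10 members and the 48 pathway genes, coloured by list, whatever fill the legend shows; in the plot, filled points are genes called at an adjusted p of at most 0.05 and open points are not called. Efemp1, Efemp2 and Emilin1 are the filled members to the right of 0 and Mfap5 the one to the left, and all 11 elastin-cutting proteases lie to the right.

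Among 14 other fibre and microfibril genes, 0 were called higher and 3 lower, with a median of -0.04. Adamtsl5, from a family of secreted proteins that bind fibrillin microfibrils, had 50.6, 71.6, 52.1 and 47.9 normalised counts in naive and 13.8, 21.7, 10.8 and 14.1 in cast. The groups were well apart, 3.57-fold lower in cast (log2 -1.83, SE 0.23, limma adjusted p = 0.00164). Adamtsl4 of the same family fell from 92.8 ± 23.2 to 34.6 ± 15.2 (log2 -1.47, SE 0.31, limma adjusted p = 0.0157), and Emilin3 fell from 8.06 ± 2.43 to 3.14 ± 1.32 (log2 -1.15, limma adjusted p = 0.0403; SD, n = 4 each). Fbn2, which encodes the fibrillin made mostly in development, had 6.03, 11.5, 13.1 and 9.06 in naive and 137, 24.9, 55.9 and 11.9 in cast. Cast replicate 4 lay inside the naive range and the call was missed (log2 1.93, SE 0.62, limma adjusted p = 0.0763). Mfap2, which encodes MAGP-1, averaged 32.2 ± 15.8 and 55.0 ± 25.6 (log2 0.76, limma adjusted p = 0.204), and without naive replicate 4 its adjusted p was 0.0309. Fbln7 (326 ± 88.4 and 364 ± 39.7) and Emilin2 (191 ± 30.0 and 120.02 ± 32.5), the most abundant of the list among those not called, had adjusted p of 0.622 and 0.0700. The call of Emilin3 was lost without any 1 of naive replicates 1 to 3 or cast replicates 1, 3 and 4 (adjusted p of 0.0662 to 0.113), and that of Adamtsl4 without naive replicate 2 (0.0510). Both calls were also lost with the muscle level as a covariate.

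The latent TGF-beta binding proteins tie that growth factor to microfibrils, and Ltbp4 also serves elastin assembly with fibulins 4 and 5. Ltbp4 was the 1 of 4 called. It had 343, 536, 452 and 558 normalised counts in naive and 188, 145, 86.7 and 114 in cast, 3.60-fold lower on the scale of the value plus 1 (log2 -1.85, SE 0.26, limma adjusted p = 0.00283). Every cast library was below every naive one. Ltbp2 was 18.4 to 34.7 in naive and 35.9 to 129 in cast, every cast library above every naive one, but was not called (log2 1.10, limma adjusted p = 0.104; log2 0.68 without cast replicate 1). Ltbp1 (log2 0.37) and Ltbp3 (log2 -0.28) had adjusted p of 0.287 and 0.518.

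Lysyl oxidases crosslink elastin and collagen, and 1 of 5 was called higher and 2 lower. Lox had 191, 175, 208 and 96.4 normalised counts in naive and 1158, 585, 548 and 496 in cast. Every cast library exceeded every naive one, 4.05-fold on the scale of the value plus 1 (log2 2.02, SE 0.33, limma adjusted p = 0.00493). Loxl2 fell from 402 ± 165 to 140.1 ± 44.3 (log2 -1.49, limma adjusted p = 0.0232) and Loxl4 from 31.6 ± 6.67 to 16.1 ± 1.70 (log2 -0.91, limma adjusted p = 0.0164). Loxl1, the family member tied most closely to elastin, averaged 222 ± 71.9 and 243 ± 88.8 (log2 0.10, limma adjusted p = 0.882), and Loxl3 averaged 44.7 ± 7.77 and 58.1 ± 16.9 (adjusted p = 0.452). The call of Loxl2 was lost without any 1 of naive replicates 1 and 2 or cast replicates 2 and 3 (adjusted p of 0.0511 to 0.0664), and that of Loxl4 without naive replicate 2 (0.0553) or cast replicate 3 (0.0535). With the muscle level as a covariate, the calls of Loxl2 and Loxl4 were lost too.

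**Figure D5:**
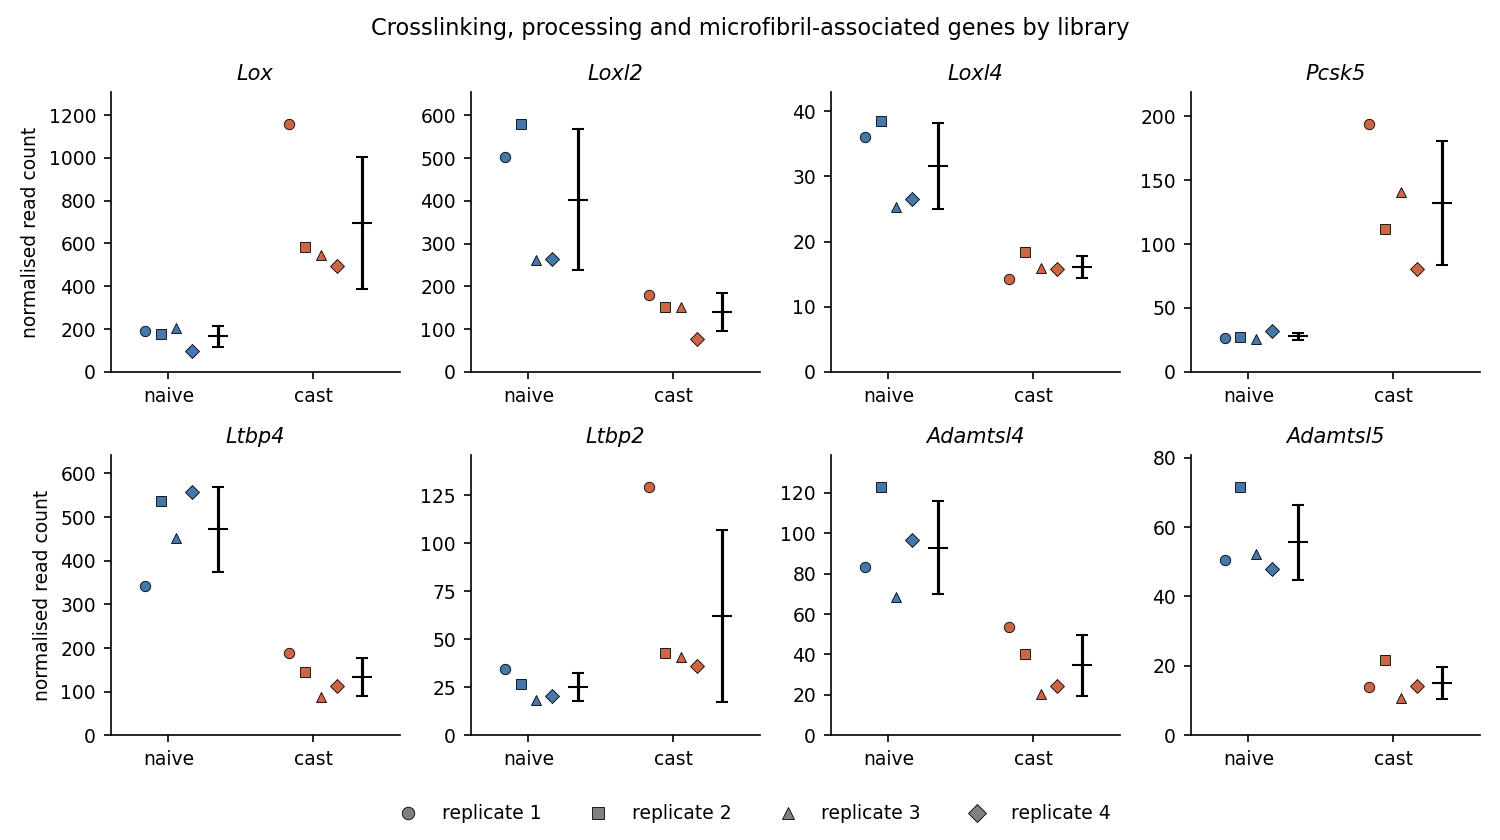
Normalised read count (linear axis from 0, scaled for each gene) of 8 pathway genes outside the set in the 4 naive (blue) and 4 cast (orange) libraries, 1 point a library with a shape for each replicate number, and the mean ± SD as a bar beside them. Lox lies higher and Ltbp4 lower in every cast library than in any naive one, and in Ltbp2 cast replicate 1 stands at 129 above the rest.

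Of 8 genes for processing enzymes and the elastin receptor, 1 was called, Pcsk5, a proprotein convertase, with 26.5, 27.1, 26.0 and 31.7 normalised counts in naive and 194, 112, 141 and 80.2 in cast. That was 4.39-fold on the scale of the value plus 1 (log2 2.13, SE 0.25, limma adjusted p = 0.00112). Ctsa, a subunit of the elastin receptor, and Bmp1, a procollagen and pro-lysyl oxidase protease, were at log2 0.30 and 0.00 (limma adjusted p of 0.460 and 0.996).

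Of 11 proteases able to cut elastin, 5 were called higher and 0 lower, against 6.51% and 5.46% of all genes tested. All 11 had a positive log2 fold change, against 8429 of the 15120 genes tested, and their median was 1.27. Elane and Ctsg, not called, were above the naive range only in cast replicates 1 and 2. In cast replicates 3 and 4 Elane was 0.136 and 0.267, and Ctsg was 0 and 0.267. Mmp9, a gelatinase, rose from 29.7 ± 8.17 to 298 ± 174 (log2 3.07, limma adjusted p = 0.00338). Mmp12, the macrophage elastase, was near its floor in naive, at 0.278 ± 0.274 against 2.34 ± 1.07 in cast (log2 1.35, limma adjusted p = 0.0202). Prtn3, a neutrophil protease, rose from 4.73 ± 1.92 to 20.7 ± 16.0 (adjusted p = 0.0437), Ctss from 168 ± 43.8 to 304 ± 41.4 (adjusted p = 0.0310) and Ctsl from 364 ± 78.8 to 744 ± 148 (adjusted p = 0.0174; limma throughout, SD, n = 4 each). All of these but Mmp9 lost the call when some library was left out: Prtn3 with any 1 of naive replicates 1 to 3 or cast replicates 1, 2 and 4 (adjusted p of 0.0593 to 0.117), Ctss with naive replicates 1 and 2 or cast replicates 1, 3 and 4 (0.0555 to 0.0970), Mmp12 with naive replicate 3 or cast replicates 1 and 3 (0.0516 to 0.0662), and Ctsl with naive replicate 2 (0.0589) or cast replicate 3 (0.0602). With the muscle level as a covariate the calls of Prtn3 (adjusted p = 0.221), Ctss (0.143) and Ctsl (0.114) were lost too. Ctsb and Mmp2, the most abundant of those not called, were at log2 0.83 and 0.90 (limma adjusted p of 0.0573 and 0.147). Of 9 neutrophil markers 8 were called higher, and their summed level was highest in cast replicate 2, at 5954. In that library Mmp9 (514) and Prtn3 (43.5) were the highest of the cast group. Ctss (253), Ctsl (593) and Mmp12 (0.899) were the lowest of the cast group there. The part of neutrophil markers in these differences was not tested. Of 6 inhibitors 1 was called higher, Slpi, which blocks neutrophil elastase, at 0.626 ± 0.415 and 20.3 ± 11.5 (log2 3.58, limma adjusted p = 0.000672). Timp2 (log2 -0.54) and Cst3 (log2 -0.33), the most abundant of those not called, had limma adjusted p of 0.221 and 0.552. Of the 6 inhibitors, 3 had a positive log2 fold change, and the median was 0.40.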

How the data were processed

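The table the authors deposited holds a signal, normalised read counts of each gene in each of 8 libraries. Dividing by what 1 read was worth in a library gave whole numbers, within 0.01, for 100% of genes. Bowtie2, RSEM, edgeR, Trimmomatic 0.36 and the mouse build mm10 appear in the submitters' processing notes, whereas the labels' protocol names Trimmomatic 0.38 and hg38; the symbols are those of mouse genes. For the annotation and strand setting used in counting, the sources used here give nothing. Libraries were directional and depleted of ribosomal RNA, per the labels' protocols.

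Values were compared on log2(value + 1) with limma-trend (limma 3.58.1, R 4.3.3) over all 15120 genes with a mean of at least 0.5, with group as the only term and Benjamini-Hochberg adjustment at 0.05. Fold changes are ratios of geometric means of the value plus 1, so they differ from ratios of the arithmetic means given. They understate the changes of low genes because of the pseudocount of 1. As alternatives, edgeR 4.0.16 (quasi-likelihood) and DESeq2 1.42.0 were run on recovered reads, with 24 alternatives in all. Ratios were tested with scipy 1.17.1. Coordinates and lengths came from GENCODE M21 (GRCm38, the assembly of mm10), which 15795 symbols matched. The fitting step was tested on simulated data.

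Named genes were the 10 members and the called genes of each pathway list (at most 6) with its 2 most abundant others. Also named were Lox, Loxl1, Ltbp1 to Ltbp4, Fbn2, Mfap2, and the 3 genes most like Eln (predicted and clone names left out). Cell markers appear as sums, counts and defining genes. Members and lists were chosen with earlier results of these data known. Tables and figures used matplotlib 3.10.9, numpy 2.4.6 and pandas 2.3.3 under Python 3.11.15.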

Additional observations from a re-analysis of the deposited data

Results flagged for a closer look

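Among the 39 named genes of the report's main comparison, 78 groups of 4 libraries were examined for a library whose gap to the nearest other, as a share of the group's range, was above Dixon's 95% critical value, which chance gives in about 1 in 20 groups. That held in 8 groups, 6 of them for cast replicate 1. In that library Eln was 327 normalised counts (80.2 to 101 in the other cast libraries), Mfap4 was 135 (14.9 to 31.2) and Mfap5 was 79.4 (27.2 to 30.1). There Lox was 1158 (496 to 585), Ltbp2 was 129 (35.9 to 42.7) and Mfap2 was 93.0 (38.0 to 46.3). Fbn1 was 605 in cast replicate 4, against 1376 to 1437 in the other cast libraries. Mfap2 was 55.6 in naive replicate 4, the shallowest library, against 21.5 to 26.8 in the other naive libraries.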

How the results depend on the processing

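The 4 called members (3 higher, 1 lower) became 2 with limma without a trend, 2 without cast replicates 1 and 2 (chosen after seeing the data) and 0 with the muscle level as a covariate, and 0 to 4 when each library was left out in turn, the 0 being without cast replicate 3. The 4 were without cast replicate 4, where Fbln2 was gained (limma adjusted p = 0.0323) and Efemp1 lost (0.11). Array weights called 6, DESeq2 5 and edgeR 4. The 14 called pathway genes became 28 with array weights, 26 with DESeq2, 9 without cast replicates 1 and 2, 24 without naive replicate 4 and cast replicate 1 (also chosen after seeing the data), and 7 (without naive replicate 2) to 20 (without naive replicate 4) when each library was left out. Calls over all genes tested also differed between settings. They numbered 1810 as reported, 1807 with limma without a trend, 3985 with array weights, 2754 with DESeq2 and 2039 with edgeR. With the muscle covariate they numbered 4424. There were 717 without cast replicates 1 and 2, and 3278 without naive replicate 4 and cast replicate 1. With each library left out they ran from 916 (without cast replicate 3) to 2665 (without naive replicate 4). The causes were not tested. Mfap5 was called in 22 of 24 alternatives, Efemp2 in 19, Emilin1 in 14 and Efemp1 in 12; no sign of these 4 changed. Eln was called in 0 of 24 and its sign changed in 6. Lox, Ltbp4, Adamtsl5, Pcsk5, Mmp9 and Slpi were called in 24 of 24, Adamtsl4 in 22, Ctsl in 21, Loxl4 in 20, Loxl2 in 18, Ctss in 17, Emilin3 in 16, Prtn3 in 12 and Mmp12 in 18 of 23. No pair of ratios passed after adjustment under any alternative, and with a library left out none could. Same-numbered libraries deviated together weakly (r of 0.080, 0.035, -0.057 and -0.021), so the numbers were not taken as pairs; with replicate number as a block, 2 members and 13 pathway genes were called. The depth of naive replicate 4 limits what low genes can show.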
